A study of Mus musculus with 9 samples.

Results

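The peroxiredoxins and the thioredoxin system were followed here through 10 genes: the 6 peroxiredoxins Prdx1 to Prdx6, the thioredoxins Txn1 and Txn2, and the thioredoxin reductases Txnrd1 and Txnrd2. They were chosen by gene name, and all 10 were measured among the 14477 genes of the table. The libraries held RNA of sorted cells from adult mice, taken from the dentate gyrus (DG, 5 libraries) or from the subventricular zone beside the lateral ventricle (SVZ, 4 libraries), the main places where neurons are still born in the adult mouse brain. Every mouse belonged to the strain B6.Cg-Tg(Nes-EGFP)1Yamm, in which regulatory sequence of the precursor gene Nestin drives green fluorescent protein, lived in standard housing and received no treatment. Sorting kept the green cells. The labels give no exact age and do not say whether a library came from 1 animal or from a pool, so p-values measure only how far these libraries scatter, and some of that scatter may be technical.

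Peroxiredoxins are abundant enzymes that reduce hydrogen peroxide through a reactive cysteine. Most of them are then returned to the active state by thioredoxin, a small protein with a pair of cysteines, and thioredoxin is in turn reduced by thioredoxin reductase, a selenium-containing enzyme that takes its electrons from NADPH. The system exists in parallel forms in the cytosol (Prdx1, Prdx2, Txn1, Txnrd1) and in mitochondria (Prdx3, Txn2, Txnrd2). Prdx4 works in the endoplasmic reticulum, Prdx5 in mitochondria, peroxisomes and cytosol, and Prdx6, which is recharged by glutathione in place of thioredoxin, mainly in the cytosol. In the brain Prdx6 is known as an astrocyte protein and Prdx2 as a neuronal one.

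Prdx1 and Txnrd1 are known targets of NRF2, the transcription factor that answers oxidants, and their promoters are shown because they lay on opposite sides of the DG against SVZ comparison. The letters TGACNNNGC, the core of the antioxidant response element that NRF2 binds, were searched on both strands in windows from 250 bases before to 50 bases after each annotated start (RefSeq, GRCm38.p6). Of the 9 members with a window in the table, with 11 windows in all, 2 held the core, and 12.4% of all 32851 windows of that length held it too. The match lies on the strand opposite to the gene in both, 133 to 125 bases before the start of Prdx1 (chr4:116685349-116685648, plus strand) and 92 to 84 bases before 1 of the 3 annotated starts of Txnrd1 (chr10:82858956-82859255, plus strand), and is in capitals. A match of letters is a description and not a measured binding site.
Prdx1: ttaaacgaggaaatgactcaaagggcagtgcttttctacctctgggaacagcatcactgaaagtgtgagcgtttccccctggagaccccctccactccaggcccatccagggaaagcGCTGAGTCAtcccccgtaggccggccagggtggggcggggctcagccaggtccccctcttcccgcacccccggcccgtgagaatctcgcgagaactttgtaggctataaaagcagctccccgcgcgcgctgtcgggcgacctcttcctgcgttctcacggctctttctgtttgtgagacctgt
Txnrd1: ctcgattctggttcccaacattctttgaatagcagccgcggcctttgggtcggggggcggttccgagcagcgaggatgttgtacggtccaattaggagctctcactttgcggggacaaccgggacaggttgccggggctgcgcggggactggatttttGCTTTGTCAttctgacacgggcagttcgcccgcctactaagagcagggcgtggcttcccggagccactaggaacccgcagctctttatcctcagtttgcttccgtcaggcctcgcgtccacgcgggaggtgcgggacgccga

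Expression is given as log2 CPM, the logarithm of reads scaled to the library total after adding about 1 read. Means carry the SD of the 5 DG or the 4 SVZ libraries. A log2 fold change is the DG mean less the SVZ mean, SE is its standard error, and limma adjusted the p-values over all 14477 genes. Totals ranged from 33627909 to 41164044 reads in DG and from 31126803 to 32528255 reads in SVZ. The sorted populations differed in makeup. All 12 endothelial and all 11 pericyte and smooth muscle markers were higher in DG, with summed levels of 1202 to 2314 CPM in DG and 11.6 to 69.1 CPM in SVZ for the first list, and 5444 to 11309 CPM in DG and 72.1 to 170.0 CPM in SVZ for the second. Of 10 oligodendrocyte lineage markers 8 were higher in DG and 1 was higher in SVZ (4063 to 6662 CPM in DG, 1517 to 2854 CPM in SVZ). All 8 ependymal markers were higher in SVZ (12.3 to 30.1 CPM in DG, 118 to 327 CPM in SVZ). Of 10 astroglial markers 9 were higher in DG (17143 to 25849 CPM in DG, 1976 to 3625 CPM in SVZ), while all 10 neuroblast markers (6599 to 9768 CPM in DG, 22758 to 26774 CPM in SVZ) and all 12 cell cycle markers (994 to 1502 CPM in DG, 3546 to 4177 CPM in SVZ) were higher in SVZ. Nes, whose regulatory sequence drives the sorted marker, was lower in DG, at 6.28 ± 0.42 log2 CPM in DG and 7.23 ± 0.34 log2 CPM in SVZ (-0.95, adjusted p = 0.00238, limma). The part of these markers in the results on the redox genes was not tested, and in bulk RNA fewer cells of a type and less RNA per cell cannot be told apart. In 3 libraries a marker list stood apart: neuroblast markers were high for the tissue in DG 2, mature neuron markers in DG 3 and endothelial markers in SVZ 1. The counts of members called were the same without any 1 of these libraries and without all 3.

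Peroxiredoxins and thioredoxin genes moved in both directions between the regions. Prdx1, Prdx3, Prdx5 and Prdx6 were higher in DG, by 1.46-fold to 2.26-fold. Prdx2, Txn1 and Txnrd1 were lower in DG, by 1.6-fold to 2.51-fold. Prdx4, Txn2 and Txnrd2 did not pass the test. Together 7 of 10 members passed, against a background in which 66.6% of all genes passed (32.9% higher in DG and 33.7% higher in SVZ), so the members' share is near that of all genes. The same 7 members had groups without overlap, 4 with DG above and 3 with DG below, as had 58% of all genes (29.7% with DG above and 28.3% with DG below).

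**Figure D1:**
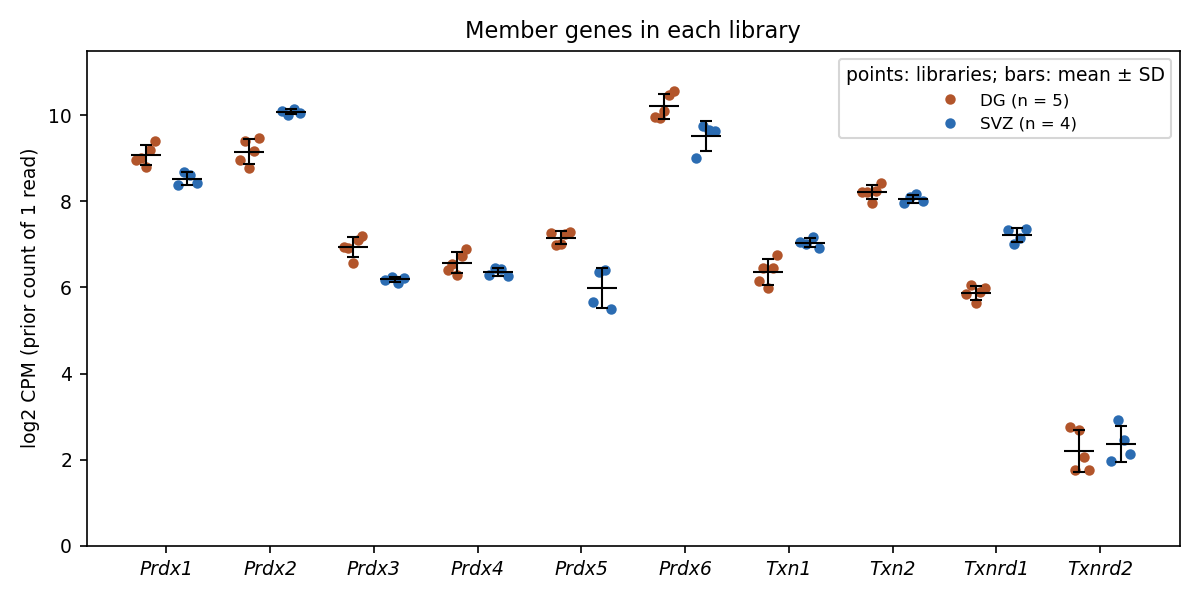
Log2 CPM of each member gene in every library, DG (5 libraries, left of each pair) and SVZ (4 libraries, right), with mean and SD. Prdx6 and Prdx2 have the highest values and Txnrd2 the lowest; the points of the tissues are apart in 7 genes and intermingle in Prdx4, Txn2 and Txnrd2.

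Prdx2, the cytosolic peroxiredoxin of neurons and red blood cells, was the only peroxiredoxin that passed the test in the direction of SVZ. The gene (ENSMUSG00000005161, chromosome 8, 84969587 to 84974834, plus strand, GRCm38) had 8.97, 9.41, 8.77, 9.16 and 9.48 log2 CPM in DG 1 to DG 5, and 10.09, 10.01, 10.15 and 10.06 log2 CPM in SVZ 1 to SVZ 4. The SVZ libraries lay within a narrow band and every DG library lay below them, with DG 2 and DG 5 nearest. The mean was 9.16 ± 0.30 in DG and 10.08 ± 0.06 in SVZ (log2 fold change -0.92, SE 0.14, adjusted p = 0.000137, limma). All 5 red blood cell markers that were measured were higher in DG (81.1 to 210.2 CPM in DG, 30.1 to 75.2 CPM in SVZ), and their part in the Prdx2 values was not tested. A processed pseudogene of Prdx2, Tdpx-ps1, shares 96.3% of its letters over 597 bases and had nearly the same difference at a far lower level (-0.91, 0.56 ± 0.22 log2 CPM in DG and 1.47 ± 0.09 in SVZ), and how reads were divided between such copies is not given in the sources used here. On the opposite strand, exons of Rnaseh2a share 177 bases with those of Prdx2. The kit did not mark the strand, and Rnaseh2a was lower in DG as well (-0.68, SE 0.15).

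Prdx1, the closest relative of Prdx2 in place and mechanism, differed in the other direction. Prdx1 (ENSMUSG00000028691, chromosome 4, 116685544 to 116700822, plus strand) had 8.97, 9.00, 8.79, 9.19 and 9.40 log2 CPM in DG 1 to DG 5, and 8.38, 8.69, 8.61 and 8.43 log2 CPM in SVZ 1 to SVZ 4. The gap between the lowest DG library, DG 3, and the highest SVZ library, SVZ 2, was small, and the groups did not overlap. The mean was 9.07 ± 0.23 in DG and 8.53 ± 0.15 in SVZ (a difference of 0.54, SE 0.12, adjusted p = 0.00246, limma), the smallest of the 7 differences that passed. Of Prdx1, 3 processed pseudogenes share at least 90% of their letters over 200 bases or more, and none of them is a row of the table.

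Prdx5 had the largest difference among the peroxiredoxins. This enzyme, which serves mitochondria, peroxisomes and cytosol (ENSMUSG00000024953, chromosome 19, 6906697 to 6910106, minus strand), had 7.26, 6.98, 7.0, 7.25 and 7.30 log2 CPM in DG 1 to DG 5, and 5.67, 6.35, 6.41 and 5.50 log2 CPM in SVZ 1 to SVZ 4. DG libraries were close together, while SVZ 1 and SVZ 4 lay well below SVZ 2 and SVZ 3. The mean was 7.16 ± 0.16 in DG and 5.98 ± 0.46 in SVZ (a difference of 1.18, SE 0.19, adjusted p = 0.000209, limma), a 2.26-fold difference. Exons of the gene Trmt112 on the opposite strand share 409 bases, 19.1% of the exon length of Prdx5. Trmt112 did not pass the test (-0.22, adjusted p = 0.152, limma).

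Prdx3, the peroxiredoxin confined to mitochondria, was higher in DG in all libraries. Prdx3 (ENSMUSG00000024997, chromosome 19, 60864051 to 60874556, minus strand) had 6.93, 6.91, 6.57, 7.10 and 7.19 log2 CPM in DG 1 to DG 5, and 6.18, 6.24, 6.10 and 6.23 log2 CPM in SVZ 1 to SVZ 4. DG 3 was the lowest of its group and still lay above every SVZ library. The difference was 0.76 (SE 0.12, adjusted p = 0.000227, limma), or 1.69-fold.

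Prdx6, the astrocyte peroxiredoxin that also has phospholipase activity, was higher in DG beside higher astroglial markers. Prdx6 (ENSMUSG00000026701, chromosome 1, 161240112 to 161251219, minus strand) had 9.95, 9.94, 10.10, 10.48 and 10.56 log2 CPM in DG 1 to DG 5, and 9.01, 9.76, 9.66 and 9.63 log2 CPM in SVZ 1 to SVZ 4. SVZ 1 was the lowest library for this gene and also the SVZ library with the lowest astroglial sum (1976 CPM), and DG 4 and DG 5 were the highest libraries for both. This is not particular to Prdx6. Of the 10 members, 9 lay above their tissue mean in DG 4 and 9 in DG 5, and 7 lay below it in SVZ 1. Whether the astroglial sum bears on Prdx6 was not tested. The mean was 10.21 ± 0.30 in DG and 9.51 ± 0.34 in SVZ (a difference of 0.69, SE 0.18, adjusted p = 0.00537, limma).

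Prdx4, the peroxiredoxin of the endoplasmic reticulum, could not be told apart between the regions. It had 6.28 to 6.90 log2 CPM in DG (median library DG 2, 6.54) and 6.27 to 6.45 log2 CPM in SVZ, with means of 6.57 ± 0.25 in DG and 6.37 ± 0.10 in SVZ. The difference was 0.21, with a 95% interval of -0.07 to 0.48 (adjusted p = 0.17, limma), and corresponds to 1.15-fold at the estimate.

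**Figure D2:**
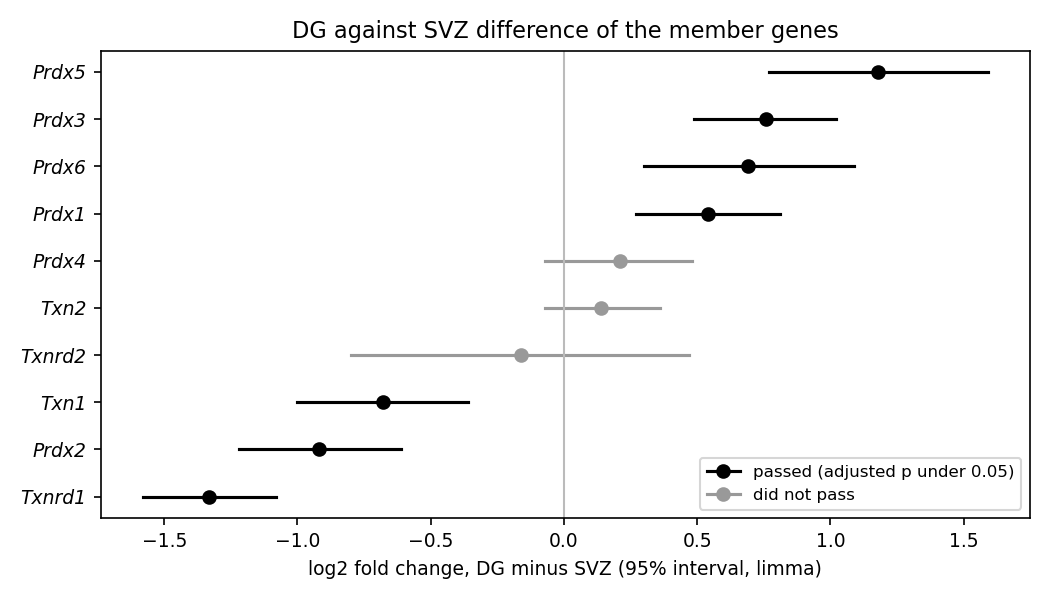
Log2 fold change (DG minus SVZ) of each member gene with its 95% interval from limma; black genes passed the test and grey genes did not. Values run from -1.33 for Txnrd1 to 1.18 for Prdx5, and the widest interval belongs to Txnrd2.

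The cytosolic arm that recharges the peroxiredoxins was lower in DG. Txnrd1, the cytosolic reductase (ENSMUSG00000020250, chromosome 10, 82833951 to 82897712, plus strand), had 5.84, 6.05, 5.63, 5.90 and 5.99 log2 CPM in DG 1 to DG 5, and 7.33, 7.01, 7.15 and 7.35 log2 CPM in SVZ 1 to SVZ 4. The groups lay far apart relative to their spread, the widest separation among the members. The mean was 5.88 ± 0.16 in DG and 7.21 ± 0.16 in SVZ (a difference of -1.33, SE 0.11, adjusted p = 1.81e-06, limma), 2.51-fold lower in DG. Txn1, the cytosolic thioredoxin (ENSMUSG00000028367, chromosome 4, 57943373 to 57956411, minus strand), had 6.15, 6.46, 5.98, 6.45 and 6.76 log2 CPM in DG 1 to DG 5, and 7.06, 7.0, 7.17 and 6.92 log2 CPM in SVZ 1 to SVZ 4. DG 5 came close to the lowest SVZ library, SVZ 4, without reaching it. The difference was -0.68 (SE 0.15, adjusted p = 0.00166, limma). A near-identical pseudogene, Txn-ps1, is not a row of the table.

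The mitochondrial partners of these genes did not pass the test. Txn2, the mitochondrial thioredoxin (ENSMUSG00000005354, chromosome 15, 77915047 to 77929006, minus strand), had 8.21, 8.21, 7.96, 8.24 and 8.42 log2 CPM in DG 1 to DG 5, and 7.96, 8.11, 8.17 and 8.02 log2 CPM in SVZ 1 to SVZ 4. The groups overlapped, and the difference of 0.14 had a 95% interval of -0.07 to 0.36 (adjusted p = 0.214, limma). Txnrd2, the mitochondrial reductase (ENSMUSG00000075704, chromosome 16, 18426384 to 18479073, plus strand), had the fewest reads of the 10 genes, 121 to 234 in DG libraries and 124 to 235 in SVZ libraries. It stood at 2.76, 1.76, 2.69, 2.07 and 1.75 log2 CPM in DG 1 to DG 5, and at 1.97, 2.92, 2.46 and 2.12 log2 CPM in SVZ 1 to SVZ 4. The libraries of each tissue were spread over about the same range, and the interval of the difference was the widest of the members, -0.80 to 0.47 around -0.16 (adjusted p = 0.636, limma).

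Levels of different genes can be set side by side only per length, and were taken as CPM divided by the kilobases of annotated exon. In DG the order was Prdx6 (250.2 ± 52.3), Prdx2 (191 ± 38.7), Prdx1 (179 ± 29.2), Prdx3 (84.1 ± 13.3), Txn1 (79.5 ± 16.6), Txn2 (70.6 ± 7.79), Prdx5 (67.1 ± 7.09), Prdx4 (45.7 ± 7.88), Txnrd1 (8.37 ± 0.922) and Txnrd2 (1.09 ± 0.378). Ranges of the 3 leading genes overlapped between neighbours, as did those of Prdx3, Txn1, Txn2 and Prdx5, while the steps below Prdx1, Prdx5, Prdx4 and Txnrd1 were without overlap. In SVZ the order was Prdx2 (354 ± 13.8), Prdx6 (155 ± 32.5), Txn1 (125 ± 9.33), Prdx1 (122 ± 12.4), Txn2 (63.7 ± 4.27), Prdx3 (49.3 ± 2.18), Prdx4 (39.2 ± 2.6), Prdx5 (30.6 ± 9.56), Txnrd1 (21 ± 2.29) and Txnrd2 (1.21 ± 0.373). Prdx2 led in every SVZ library, clear of Prdx6, and the steps from Prdx6 to Txn1, Txn1 to Prdx1, Prdx4 to Prdx5 and Prdx5 to Txnrd1 overlapped. Both reductases stood below all peroxiredoxins and thioredoxins in the mean of each tissue on this length. With the longest annotated transcript as gene length only 5 members kept their place in DG and 3 in SVZ, and in SVZ Txnrd1 (41.1) then stood above Prdx5 (35.9). Among the peroxiredoxins Prdx6 still held the largest share of the summed level in DG (35.4%) and Prdx2 in SVZ (52.2%).

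The peroxiredoxin pool of the tissues had a similar summed level and a different makeup. The summed level of the 6 genes was 816 ± 130.0 in DG and 750.4 ± 50.8 in SVZ, with ranges of 677 to 1000.1 in DG and 685 to 795 in SVZ that overlapped. Prdx2 held 23.4% ± 3.10 of the sum in DG and 47.4% ± 3.73 in SVZ. Its share was 22.6%, 28.6%, 21.1%, 21.0% and 23.5% in DG 1 to DG 5, and 52.1%, 43.1%, 46.7% and 47.5% in SVZ 1 to SVZ 4. Every SVZ library thus had a larger Prdx2 share than any DG library. The shares of Prdx6 (30.6% ± 3.27 in DG, 20.6% ± 3.31 in SVZ), Prdx1 (21.9% ± 0.482 in DG, 16.2% ± 0.805 in SVZ), Prdx3 (10.3% ± 0.692 in DG, 6.6% ± 0.588 in SVZ) and Prdx5 (8.31% ± 1.02 in DG, 4.04% ± 1.04 in SVZ) were smaller in SVZ. That of Prdx4 was 5.59% ± 0.0956 in DG and 5.23% ± 0.212 in SVZ, with ranges that just overlapped. No test was made of these shares, which are a different view of the same values.

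**Figure D3:**
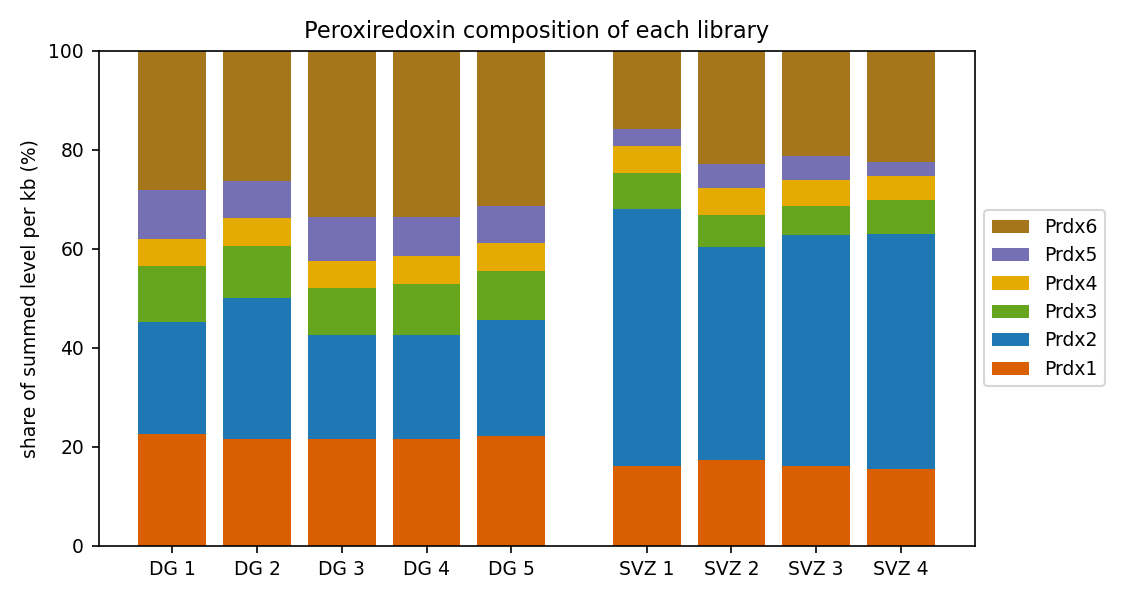
Share of each peroxiredoxin in the summed level per kilobase of the 6 genes, in percent, for each DG and SVZ library. Prdx2 takes 21.0% to 28.6% in DG libraries and 43.1% to 52.1% in SVZ libraries.

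Ratios of 2 members inside the same library do not depend on how libraries were scaled to each other. For 6 pairs the log2 ratio of CPM was compared between the tissues by an exact two-sided permutation test, adjusted over the 6 pairs, whose smallest possible p is 0.0159. The cytosolic over the mitochondrial thioredoxin, Txn1 over Txn2, was -2.06, -1.75, -1.98, -1.78 and -1.66 in DG 1 to DG 5, and -0.90, -1.12, -1.0 and -1.09 in SVZ 1 to SVZ 4. The groups were apart, by -0.82 on average (exact permutation p = 0.0159, adjusted p = 0.0238). The adjusted p is this low only because the ratios between Prdx2 and other members share the smallest p. Those ratios had to separate, as set out below, so the call does not rest on Txn1 over Txn2 alone. The pairs were also chosen with earlier results of these data known. Prdx2 over Prdx3, the cytosolic against the mitochondrial peroxiredoxin, was 2.22 ± 0.19 in DG and 3.89 ± 0.12 in SVZ, a 3.19-fold smaller ratio in DG with the same exact permutation p.

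Relative to Prdx2, Prdx1 and Prdx6 were both higher in DG. Prdx1 over Prdx2 was -0.09 ± 0.19 in DG and -1.55 ± 0.17 in SVZ (difference 1.46), and Prdx6 over Prdx2 was 1.05 ± 0.33 in DG and -0.56 ± 0.36 in SVZ (difference 1.61). In both the groups were apart at the smallest p of the exact permutation test, 0.0159, with an adjusted p of 0.0238. Prdx1, Prdx3 and Prdx6 each lay above in DG without overlap, and Prdx2 lay below. Ratios between Prdx2 and these genes therefore had to separate, and their p-values add nothing to the tests of the genes. Txnrd1 over Txnrd2 was 3.68 ± 0.64 in DG and 4.84 ± 0.58 in SVZ, with overlap between DG 2, DG 5 and SVZ 2. Its difference of -1.17 missed the threshold after adjustment (exact permutation p = 0.0476, adjusted p = 0.0571) and passed it without SVZ 2 (-1.42, adjusted p = 0.0429). Prdx3 over Prdx5, both found in mitochondria, was -0.22 ± 0.16 in DG and 0.21 ± 0.50 in SVZ, and did not pass (difference -0.42, exact permutation p = 0.159, adjusted p = 0.159). The 4 ratios that passed lost the call without SVZ 1, SVZ 3 or SVZ 4 (exact permutation, adjusted p = 0.0536 in each). They kept it without SVZ 2 (adjusted p = 0.0429). These fits cannot show whether the ratios depend on any SVZ library. The groups stayed apart in each, so the unadjusted p was at the smallest value that the remaining libraries allow. The adjusted p was lower without SVZ 2 only because Txnrd1 over Txnrd2 was then apart too.

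**Figure D4:**
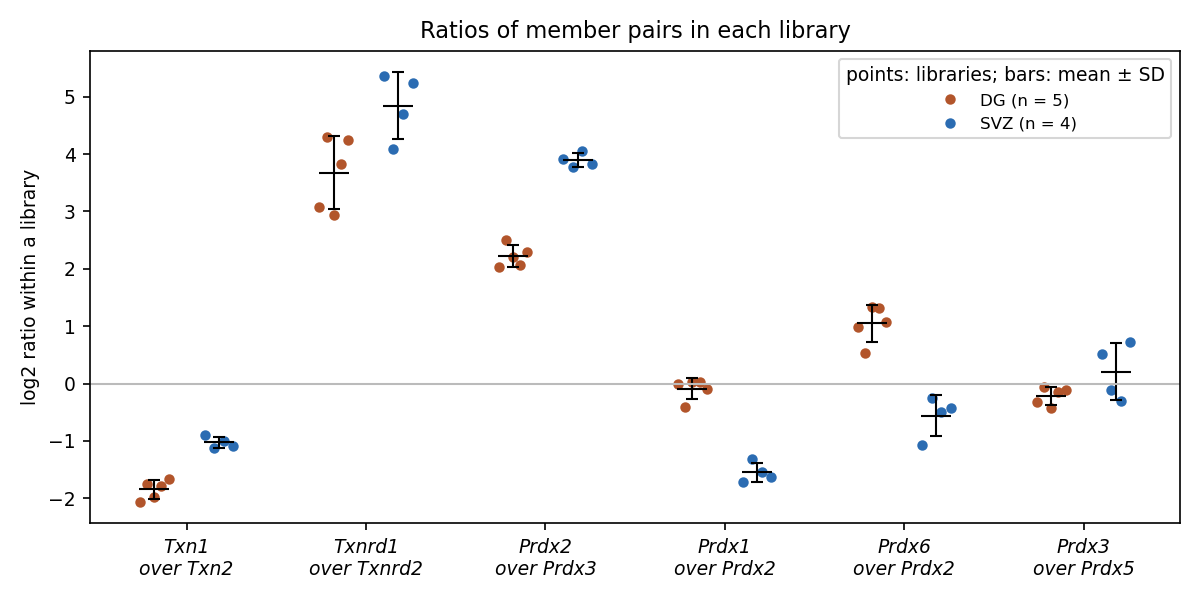
Log2 ratio of CPM between 2 member genes within each library, for DG (5 libraries, left of each pair) and SVZ (4 libraries, right), with mean and SD. The groups are apart for Txn1 over Txn2, Prdx2 over Prdx3, Prdx1 over Prdx2 and Prdx6 over Prdx2, and overlap for Txnrd1 over Txnrd2 and Prdx3 over Prdx5.

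Within each tissue many members were highest or lowest in the same library. In DG, 8 of 10 members were highest in DG 5, where 20% of all genes were highest, and 7 of 10 were lowest in DG 3, where 24.6% of all genes were lowest. DG 3 is the library with the high mature neuron sum (939.6 CPM, against 221 to 289.7 CPM in the other DG libraries). It also has the highest endothelial sum in DG (2314 CPM, against 1202 to 1573 CPM). DG 5 has the largest read total, to which CPM are already scaled. Whether any of these bears on the members was not tested. Txnrd2 ran against the rest, at 1.75 log2 CPM in DG 5 and 2.69 log2 CPM in DG 3. In SVZ, 9 members were highest in SVZ 2 or SVZ 3 (5 and 4), where 24.7% and 20.1% of all genes were highest, and the exception, Txnrd1, was highest in SVZ 4. Deviations from the tissue mean reached 0.55 for Txnrd2 and 0.50 for any other member.

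The genes with the most similar profile over the 9 libraries are given as a description, since the profile of a gene that differs between tissues is set largely by that difference. Of 9480 named genes that averaged 3 log2 CPM or more, those with the highest Pearson correlation were Marcksl1 (0.996) and Eri2 (0.995) for Txnrd1, Drg1 (0.997) and Snrpb2 (0.995) for Prdx2, and Lsm5 and Rps26 (0.995 each) for Txn1. They were Nt5c (0.986) and Gcsh (0.985) for Prdx1, Taf6l (0.992) and Cdk20 (0.990) for Prdx3, Cox10 (0.995) and Pdlim4 (0.993) for Prdx5, and Tom1l1 (0.978) and Ndrg2 (0.976) for Prdx6. For the members without a call the leading values were lower, with Ift22 and Morn2 (0.952 each) for Prdx4, Clpp (0.962) and Sdhc (0.953) for Txn2, and Rtn3 (0.960) and Dym (0.954) for Txnrd2.

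Relatives and regulators of the system also had calls on both sides, with 8 called upward in DG (40%) and 7 called downward (35%) among 20 measured. These shares are near the 32.9% and 33.7% of all genes. The list had a median log2 fold change of 0.16, against -0.075 over all genes. The peroxiredoxin-like genes were the most different. Fam213a, which encodes a redox protein with a peroxiredoxin-like fold, stood at 8.54 ± 0.23 log2 CPM in DG and 6.73 ± 0.25 in SVZ (a difference of 1.81, SE 0.14, adjusted p = 1.04e-06, limma), Fam213b, a prostamide and prostaglandin F synthase of the same fold, was higher in DG by 1.62, and Aaed1 was higher by 1.98. On the SVZ side, the glutaredoxins Glrx2 of mitochondria and Glrx of the cytosol, which use glutathione for related reactions, were lower in DG at -0.94 and -0.59. Txnl4a (-0.58) has a thioredoxin fold but is known as a spliceosome protein. Srxn1, the sulfiredoxin that revives overoxidised peroxiredoxins, was higher in DG at 3.97 ± 0.31 log2 CPM in DG and 3.18 ± 0.17 in SVZ (a difference of 0.78, SE 0.18, adjusted p = 0.00243, limma). Txnip, which binds and inhibits thioredoxin, did not pass, at 7.82 ± 0.35 log2 CPM in DG and 7.70 ± 0.16 in SVZ (0.12, 95% interval -0.25 to 0.48).

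Of 9 listed genes, mostly enzymes that draw electrons from thioredoxin, 3 were called upward in DG and 3 downward (33.3% each, median 0.06). These shares are near the 32.9% and 33.7% of all genes. Papss1 and Papss2 are in the list but do not draw electrons from thioredoxin, and neither passed (0.06 and 0.54). The ribonucleotide reductase subunits Rrm2 and Rrm1, which make DNA precursors in dividing cells, were lower in DG at -2.21 (SE 0.11, adjusted p = 5.87e-08, limma) and -1.37, beside the lower cell cycle markers, whereas Rrm2b, the subunit used outside S phase, was higher at 0.45. Rrm2b lost its call without DG 2, DG 3 and SVZ 1 (adjusted p = 0.0509). The methionine sulfoxide reductases were divided too. Msrb3 was higher in DG at 2.83 ± 0.37 log2 CPM, against -1.40 ± 0.94 in SVZ (4.24, SE 0.41, adjusted p = 4.95e-06, limma), and Msrb2 of mitochondria was higher by 1.10, while Msra was lower at -0.51. SVZ 1 had the highest Msrb3 value of its group, -0.04 against -2.17 to -1.53 log2 CPM. This library also had the highest endothelial, pericyte and smooth muscle, fibroblast and meningeal, and red blood cell sums of the SVZ libraries. Whether any of these sums bears on Msrb3 was not tested. Such low values rest on few reads, and the difference was 3.84 with a prior count of 5 reads.

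Genes that supply NADPH, the fuel of thioredoxin reductase, had 17 measured members. Of these, 5 (29.4%) were called upward in DG and 4 (23.5%) downward (median 0.10). These shares are no larger than the 32.9% and 33.7% of all genes. Higher in DG were the malic enzymes Me3 of mitochondria (1.73) and Me1 of the cytosol (1.24), and the mitochondrial NAD kinase Nadk2 (0.79). Lower in DG were the cytosolic isocitrate dehydrogenase Idh1 (-0.70, SE 0.10, adjusted p = 6.93e-05, limma) and the mitochondrial folate enzymes Mthfd2 (-0.92) and Aldh1l2 (-0.43). The remaining calls were Aldh1l1 (1.33) and Nnt (0.52) upward and G6pdx (-0.30, adjusted p = 0.019, limma) downward. Values of these genes under the alternatives are not given here.

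Oxidative folding in the endoplasmic reticulum, the setting of Prdx4, had calls in 1 direction. Of 20 measured genes, 11 (55%) were higher in DG, where 32.9% of all genes were, with a median of 0.56. The number lower in DG was 0 by limma and 0 with voom weights on the recovered reads, and 1 at an unadjusted p under 0.05, where 33.7% of all genes were lower after adjustment. Gpx8, a peroxidase of this compartment, was higher by 2.60 (SE 0.11, adjusted p = 2.40e-08, limma), at 6.99 ± 0.10 log2 CPM in DG and 4.39 ± 0.20 in SVZ. The disulfide isomerase Pdia6 was higher by 1.04 and the related membrane protein Tmx3 by 0.72, whereas the oxidases Ero1l and Ero1lb did not pass. Beside the vascular markers given above, all 7 fibroblast and meningeal markers, from cells that secrete much protein, were higher in DG (711 to 1464 CPM in DG and 25.9 to 89.6 CPM in SVZ), and their part in these calls was not tested. The largest part of that sum is Pdgfra, which is also in the oligodendrocyte lineage list. Pdgfra stood at 9.63 ± 0.57 log2 CPM in DG and 4.89 ± 0.94 in SVZ. Next in DG was Slc6a13, at 6.93 ± 0.39 log2 CPM in DG and 0.42 ± 0.61 in SVZ. Selenoprotein synthesis, which both reductases need, had 2 calls on each side among 9 genes (22.2% each, median -0.10). These shares are below the 32.9% and 33.7% of all genes. Scly, which frees selenium from selenocysteine, was higher by 1.41 and Pstk, a kinase of the selenocysteine transfer RNA, by 0.61, and the selenophosphate synthetase relative Sephs1 (-0.66) and the selenocysteine insertion factor Secisbp2 (-0.38) were lower. The call of Pstk was lost without any 1 of 7 libraries (DG 1, DG 3, DG 4, DG 5, SVZ 1, SVZ 2 or SVZ 4; adjusted p = 0.0519 to 0.0822), and that of Secisbp2 without SVZ 2 (adjusted p = 0.0503).

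NRF2, its regulators and targets other than the members had 7 of 14 measured genes (50%) higher in DG and 3 (21.4%) lower, against 32.9% and 33.7% of all genes (median 0.46). Prdx1 and Txnrd1, the targets whose promoters are shown above, are not among these 14 and lay on opposite sides at 0.54 and -1.33. Nfe2l2, which encodes NRF2, was higher in DG, at 6.94 ± 0.12 log2 CPM in DG and 5.91 ± 0.32 in SVZ (a difference of 1.03, SE 0.14, adjusted p = 6.71e-05, limma). The cystine transporter Slc7a11 was higher by 3.03 and the biliverdin reductase Blvrb by 1.69. Lower in DG were the ferritin light chain Ftl1 (-0.70), the NRF2 partner Mafg (-0.56) and the repressor Bach1 (-0.49). The call of Bach1 was lost without any 1 of 7 libraries (DG 3, DG 4, DG 5 or any SVZ library; adjusted p = 0.0545 to 0.0874) and under TMM-type scaling (0.0515). Keap1, which holds NRF2 in check, stood at 5.59 ± 0.20 log2 CPM in DG and 5.56 ± 0.44 in SVZ and did not pass.

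**Figure D5:**
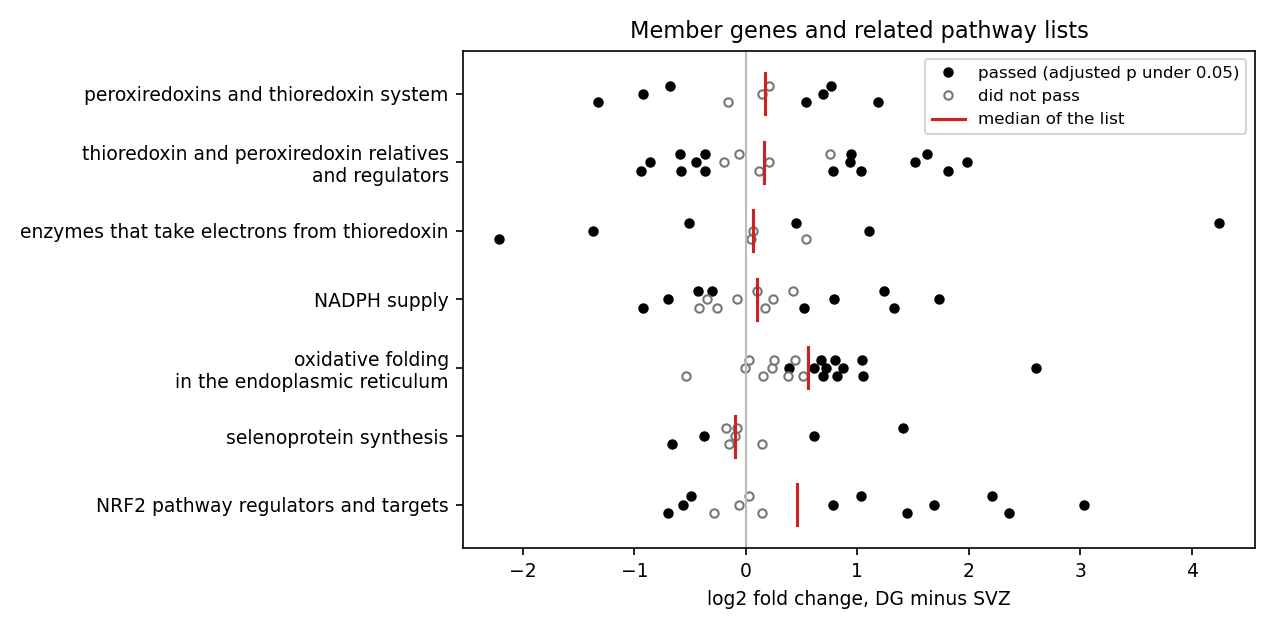
Log2 fold change (DG minus SVZ) of each measured gene of the member set and of 6 related lists, 1 point per gene; filled points passed the test, open points did not, and the red line is the median of the list. Oxidative folding has filled points only to the right of 0, and the other lists have them on both sides.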

How the data were processed

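RNA of 9 libraries (5 DG, 4 SVZ) was read from 1 table. STAR, edgeR and mm10 are named per the submitters' processing notes, and the sources used here give no version, counting tool or gene models. The values deposited by the authors are log2 CPM, although described as counts: log2((reads + prior) / (total + 2 priors)), with a prior of about 1 read that grows with library size, gave back every value within 5.33e-14, and 100% of the recovered reads were whole (tolerance 0.001). Reads summed over all 14477 genes came to 31126803 to 41164044 per library. A fold change on this scale understates that of genes with few reads, and precision statements cover counting error only where reads are quoted, since PCR copies carried no molecular identifiers. No library was counted as a duplicate, since those of 1 tissue differed well beyond counting error (chi-square over its degrees of freedom 19.4 to 172).

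The planned test for log2 values was used: limma 3.58.1, run in R 4.3.3 with the trend option, tissue as the only term and Benjamini-Hochberg adjustment over all genes, threshold 0.05, tested on simulated data first. Pair ratios used exact permutation (scipy 1.17.1). Symbols, coordinates, exon lengths and overlaps came from GENCODE M21 (GRCm38), with 14428 of 14477 identifiers matched; near-identical copies were sought with blastn 2.17.0 (at least 90% identity over 200 bases). Named genes were all members, Txnip and Srxn1, and the 2 most similar genes per member. Of each pathway list, up to 3 genes per direction with the smallest adjusted p were named. Keap1, the Ero1 genes, Nes, G6pdx, Nnt, Aldh1l1 and the overlapping genes were named after their values were seen. The members, pairs and lists were chosen with earlier results of these data known. Of the 22 names of relatives, 20 were measured, and of 15 NRF2 names, 14. Alternatives were other scalings, a larger prior count, a filter on low values, other variance models, a replicate block and leaving out libraries.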

Additional observations from a re-analysis of the deposited data

Results flagged for a closer look

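Of 120 sets of libraries of 1 tissue that were examined (member genes, named pathway genes, pair ratios and marker sums, on a log2 scale), 7 had a library set apart from the others by Dixon's criterion, where chance gives about 1 in 20. Among values of the members this concerned the log2 ratio Prdx1 over Prdx2 in DG 2, at -0.41 against -0.09 to 0.03 in the other DG libraries. DG 2 also had the highest neuroblast sum of the DG libraries, at 13.25 log2 CPM against 12.69 to 12.76; whether that bears on the ratio was not tested, and without DG 2 the difference of the ratio between tissues was 1.54.

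Mature neuron markers were high in DG 3 (9.88 log2 CPM against 7.79 to 8.18), and endothelial markers in SVZ 1 (6.11 against 3.54 to 3.87). Me1 was low in SVZ 3, at 1.48 log2 CPM against 2.16 to 2.20. Sephs1 was high in DG 1 (6.61 against 6.48 to 6.51) and in SVZ 2 (7.42 against 7.09 to 7.10).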

How the results depend on the processing

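The same 4 members higher in DG and 3 higher in SVZ passed under all 17 alternatives, the replicate block included. Of 169 values of the members under alternatives, 1 changed sign: Txnrd2, never past the threshold, was 0.02 without SVZ 2, in a leave-one-out range of -0.30 to 0.02. Over all genes, calls higher in DG numbered 2938 with only genes of at least 3 log2 CPM, by construction from fewer genes tested, and the other counts stayed within 1.5 times. TMM-type scaling moved the median of all genes to -0.02. With the longest transcript as length, 5 members kept their place in the level order in DG and 3 in SVZ. Leaving out 1 library, the ratio differences were -0.87 to -0.77 (Txn1 over Txn2), -1.42 to -0.98 (Txnrd1 over Txnrd2), -1.74 to -1.62 (Prdx2 over Prdx3), 1.41 to 1.54 (Prdx1 over Prdx2), 1.44 to 1.74 (Prdx6 over Prdx2) and -0.59 to -0.25 (Prdx3 over Prdx5). Without DG 2, DG 3 and SVZ 1, an alternative chosen after seeing the data, the values of the 4 ratios that had passed were -0.76, -1.75, 1.48 and 1.52 (Txn1 over Txn2, Prdx2 over Prdx3, Prdx1 over Prdx2, Prdx6 over Prdx2), and as a replicate block over 4 same-numbered pairs they were -0.87, -1.69, 1.46 and 1.60; neither design can reach the threshold (smallest exact permutation p 0.1 and 0.125). Same-numbered libraries did not deviate together (correlations -0.0453, -0.173, 0.00727 and -0.107), and the numbers were not taken as pairs. Correlations over 4 pairs of different tissues cannot show whether same-numbered libraries came from the same animals, which the labels do not say. With the block 4513 genes were called higher in DG and 4273 higher in SVZ. Of the other named genes that were followed under the alternatives, Pstk, Secisbp2 and Bach1 lost their call with the block. Txnrd2 had the fewest reads of the members, 121 to 235 per library.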
